A study of Mus musculus with 32 samples.

Results

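The RJ2-specific H3K4me3 intervals without DMC1 or PRDM9 were chosen by 3 deposited peak lists: an interval was kept when it shared no base with the central 400 bp of any DMC1 interval of RJ2 and no base with any peak of the deposited RJ2 PRDM9 list. They were 11235 of the 24185 RJ2-specific H3K4me3 intervals (46.5%, 95% Clopper-Pearson interval 45.8 to 47.1), and 11235 of the 76034 H3K4me3 intervals of the series. Of the other RJ2-specific intervals, 6471 met both a DMC1 centre and a PRDM9 peak, 6072 met a DMC1 centre only and 407 met a PRDM9 peak only. Because absence of overlap chose them, their lack of DMC1 and PRDM9 is no finding, and wide intervals had more bases with which to meet a peak. For brevity they are called unmarked RJ2 intervals here, and the other 12950 RJ2-specific intervals are called marked.

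RJ2 is the mouse strain B10.MOLSGR(A)-(D17Mit58-D17Jcs11)/Bdm, which carries a segment of chromosome 17 with the Cst allele of Prdm9 on a C57BL/10 background. B6 is C57BL/6JOlaHsd, with the Dom2 allele. H3K4me3 was mapped by ChIP-seq with the antibody ab8580 in elutriated pachytene testis cells of adult mice, with 1 ChIP library and 1 input per strain. PRDM9 was mapped in whole testis at 13 days post-partum and DMC1 in whole testis at 5 weeks, each with 2 replicates in each of these strains. PRDM9 lists of B6 background mice without Prdm9 (B6;129P2-Prdm9tm1Ymat/J) and without Spo11 (Spo11tm1M) were used for overlaps. Thus the mark and the proteins that define these intervals came from different cells and ages, and 0 of the 10121 RJ2 PRDM9 peaks overlapped the B6 list while 252 overlapped the Prdm9KO list. The paper states that RJ2 peaks overlapping Prdm9KO peaks, and peaks shared by both strains, were removed. The 252 overlaps with the Prdm9KO list depart from that account, and the reason is not known here. An unmarked interval may overlap an RJ2 peak that the list no longer holds.

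PRDM9 is a histone methyltransferase that binds DNA through an array of zinc fingers, and its alleles recognize different DNA motifs. It places H3K4me3 on the nucleosomes beside its binding site, where SPO11 can then cut both strands, and DMC1 loads on the resulting single-stranded ends. H3K4me3 also marks promoters and other regulatory elements, independently of PRDM9. A strain-specific interval without DMC1 or PRDM9 can therefore be examined for both kinds of sequence. The lists hold positions only, with no signal and no read depth, so no level of H3K4me3 can be given, and no test between strains was possible. The intervals given with shares below cover counting error only, and neighbouring intervals are not independent.

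The first question was whether these intervals hold the sequence recognized by PRDM9 Cst. A matrix of 22 positions was learned on RJ2 PRDM9 peaks of odd-numbered chromosomes, none of which overlaps an unmarked RJ2 interval, and its consensus is NNTGNCTTGGNCTGTGNCTNTT, read on both strands. Of the unmarked RJ2 intervals with the highest matrix score in their central 200 bp, 9 are shown to let the sequence behind the score be seen. Each line gives the strand that carries the match, from the mm9 reference, with the 22 matched bases in capitals.

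chr6:22082345-22082394, minus strand: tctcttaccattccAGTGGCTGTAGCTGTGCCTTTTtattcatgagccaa
chr7:144777728-144777777, plus strand: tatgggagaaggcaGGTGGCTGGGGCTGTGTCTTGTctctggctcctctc
chr6:119299199-119299248, plus strand: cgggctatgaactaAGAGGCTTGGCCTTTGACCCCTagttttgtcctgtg
chr15:84105072-84105121, minus strand: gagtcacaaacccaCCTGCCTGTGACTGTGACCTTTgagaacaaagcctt
chr9:89842169-89842218, plus strand: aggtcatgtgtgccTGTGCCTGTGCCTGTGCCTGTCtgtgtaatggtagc
chr14:29599605-29599654, plus strand: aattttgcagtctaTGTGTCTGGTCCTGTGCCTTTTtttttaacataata
chr11:48748744-48748793, minus strand: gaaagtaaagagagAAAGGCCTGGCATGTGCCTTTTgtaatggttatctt
chr6:137938875-137938924, plus strand: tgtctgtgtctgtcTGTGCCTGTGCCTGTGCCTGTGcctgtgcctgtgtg
chr1:6259890-6259939, minus strand: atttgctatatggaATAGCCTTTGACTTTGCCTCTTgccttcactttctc

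Their scores ran from 23.9 down to 21.0 log2 units, where the matrix allows at most 27.2 and a match needed 10.7. In the matches on chromosome 9 and in the second plus-strand match of chromosome 6, a short unit was repeated in tandem through the match. Only the interval on chromosome 7 touched a DMC1 interval of RJ2 outside its central part, 469 bp from that centre, and the other 8 lay between 4449 and 162051 bp from the nearest DMC1 centre. The interval with the top score, chr6:22081979-22082664, was 686 bp wide, was centred in a coding exon 3224 bp from the start of A430107O13Rik, and had its nearest PRDM9 peak 19299 bp away. Of the rest, 6 were centred in introns and 2 between genes, with nearest starts at Glrx3, Lrtm2, Parvb, Rasgrf1, 5S_rRNA, Gm12185, Slc15a5 and Rb1cc1. The start of Rb1cc1 was the nearest of these, at 915 bp, and all 9 lay at least 15.9 kb from H3K4me3 common to both strains.

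Over all unmarked RJ2 intervals, 1698 of 11235 (15.1%, 14.5 to 15.8) held a Cst match in the central 200 bp, against 32.5% of all RJ2-specific intervals. The threshold lets 5% of windows beside PRDM9 peaks match, and windows 5 kb to either side of the unmarked intervals matched at 4.98% (4.70 to 5.28). With the threshold set at 1% of windows, the share was 7.06% (6.59 to 7.55) in the centres and 0.966% 5 kb away. The unmarked share was thus above its own flanks, and below the 51.8% of intervals with both DMC1 and PRDM9 and the 43.8% of those with DMC1 only. That second difference lies in the direction in which the rule selects. B6-specific intervals without DMC1 or PRDM9 of B6, the counterpart set in the other strain, matched the Cst matrix at 4.05%, and common intervals at 4.88%.

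The matrix of the other allele gave the reverse order. A Dom2 matrix, learned on B6 PRDM9 peaks that lie over DMC1 centres, matched 3.54% (3.21 to 3.90) of unmarked RJ2 centres and 4.84% of their flanks. In the B6 counterpart set it matched 7.57% (6.83 to 8.36) of centres and 5.71% of flanks, a smaller step than the Cst matrix showed in RJ2. Matches in the unmarked RJ2 intervals scored lower than those in marked ones, with medians of 13.5 and 15.4 log2 units. Flanks of the 2 sets matched at 4.98% and 4.79%, while 47.7% of marked centres matched. Chance matches therefore weigh more on the unmarked median. The Cst matrix was also learned on RJ2 PRDM9 peaks, which help to define the marked set. Matches in the unmarked RJ2 intervals lay on the plus strand in 49.3% of cases (46.9 to 51.7). Of them, 63.5% (61.1 to 65.8) lay within 50 bp of the interval centre, beside 63.0% in marked intervals. Because only the central 200 bp were searched, most possible places lie that close, so the window largely sets these 2 shares.

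**Figure D1:**
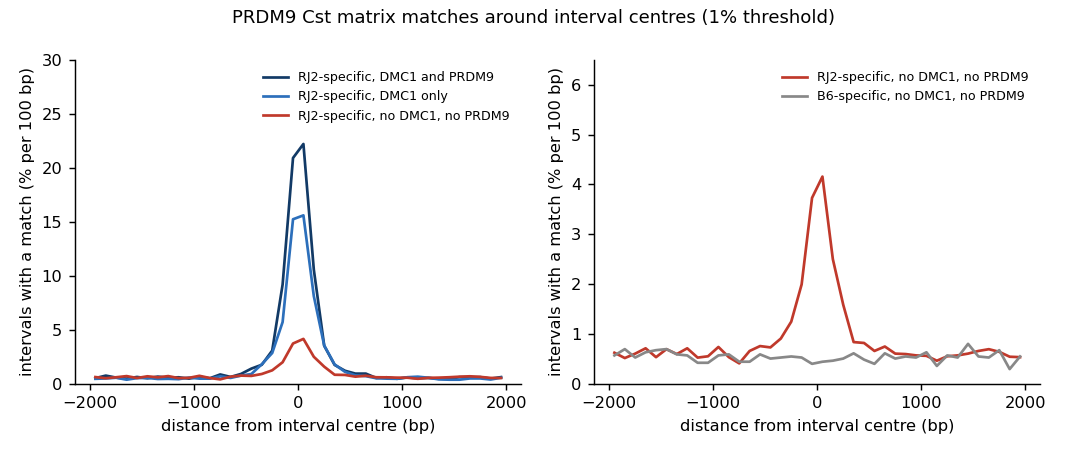
Share of intervals with a Cst matrix match (1% threshold) in each 100 bp bin, from 2000 bp before to 2000 bp after the interval centre; the left panel sets unmarked RJ2 intervals (red) beside RJ2-specific intervals with DMC1, the right panel beside unmarked B6-specific intervals (grey) on a smaller scale. The red line reaches 3.73% and 4.16% in the bins on either side of the centre and falls to 0.908% and 0.837% at 300 to 400 bp on either side, while the grey line is at most 0.801% anywhere.

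Unmarked RJ2 intervals were narrow. Their median width was 531 bp (order-statistic interval 525 to 536), with quartiles of 421 and 702 bp and a range of 1 to 5014 bp, and 6.21% of them reached 1 kb. Intervals with DMC1 only had a median of 888 bp, those with both proteins 1376 bp, and common intervals 1097 bp. The B6 counterpart set was as narrow, with a median of 529 bp. The authors kept only the parts of peaks found in all 3 sets of reads, and 27 unmarked RJ2 intervals were under 100 bp. In these narrowest intervals the window of 200 bp ran beyond the interval.

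**Figure D2:**
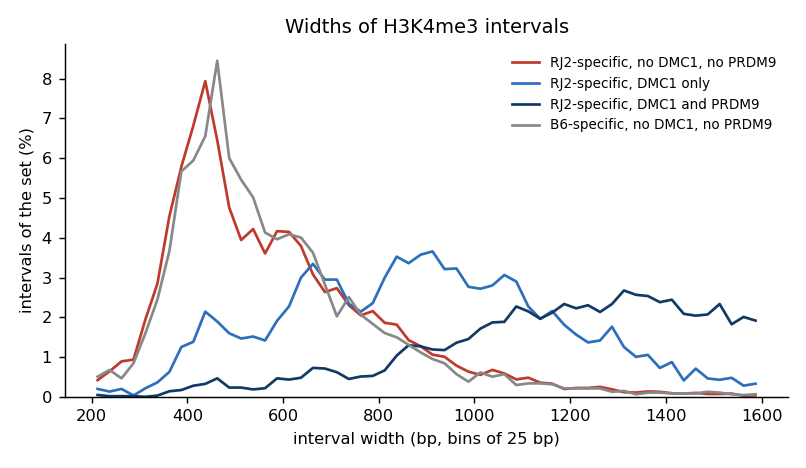
Width of H3K4me3 intervals in bins of 25 bp, as a percentage of each set. Unmarked RJ2 intervals (red) and unmarked B6-specific intervals (grey) are both most frequent between 400 and 500 bp, left of the intervals with DMC1 only (blue) and with DMC1 and PRDM9 (dark blue).

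The share with a Cst match in the centre changed with width, and not steadily. It was 7.26% (6.19 to 8.43) in the 2150 unmarked RJ2 intervals under 400 bp, 12.6% at 400 to 500 bp, 15.2% at 500 to 700 bp, 25.6% (23.8 to 27.5) at 700 to 1000 bp and 16.9% (14.2 to 19.9) in the 698 of at least 1 kb. Flanks stayed between 4.87% and 5.04% in all 5 groups. Intervals with DMC1 only showed a step at the same place, from 24.7% at 500 to 700 bp to 50.9% at 700 to 1000 bp. The B6 counterpart set stayed between 3.18% and 4.46% at every width.

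Where the match lay inside the interval changed with width in turn, as was seen after the shares by width. In the 1658 unmarked RJ2 intervals of 400 to 450 bp, 5.13% had a match (1% threshold) within 50 bp of the centre and 1.69% between 50 and 150 bp. Around the edge of these intervals, between 150 and 250 bp from the centre, 4.22% (3.31 to 5.30) had one, so their matches were not only central. In the 2407 of 550 to 700 bp the order inside 150 bp was inverted: 2.41% (1.83 to 3.10) had one within 50 bp and 12.7% (11.4 to 14.1) between 50 and 150 bp. At 800 to 900 bp matches were most frequent at the centre, with 14.4% (11.9 to 17.2) within 50 bp and 4.89% at 50 to 150 bp. At 1000 to 1200 bp they lay off centre, with 5.42% and 11.3%. The ring from 50 to 150 bp holds more bases than the central part, so chance matches weigh on it more. Intervals with DMC1 only alternated at the same widths: 3.10% and 32.4% at 550 to 700 bp, 29.5% and 9.30% at 800 to 900 bp, and 14.6% and 35.2% at 1000 to 1200 bp. The same 250 bp to either side of the centre, without regard to the position of the match, held one in 13.6% (13.0 to 14.3) of unmarked RJ2 intervals, against 2.88% for the equally long stretch from 750 to 1000 bp.

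**Figure D3:**
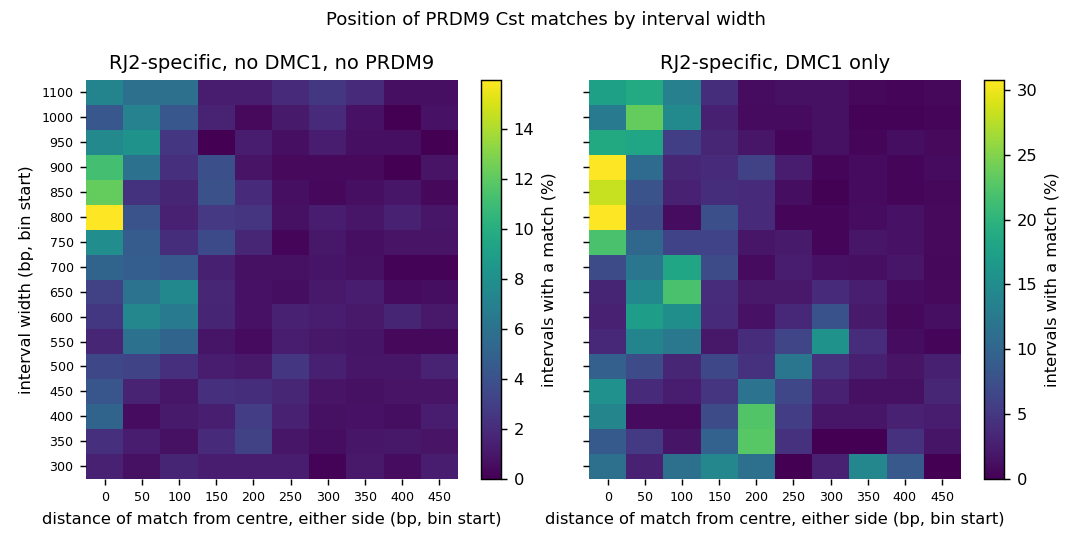
Share of intervals with a Cst match (1% threshold) by interval width (rows, labelled by the lower edge in bp) and by distance of the match from the centre on either side (columns of 50 bp), in unmarked RJ2 intervals (left) and RJ2-specific intervals with DMC1 only (right), each with its own colour scale. In both panels the bright cells move from 50 to 150 bp at widths of 550 to 700 bp to the centre at 800 to 900 bp.

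The second question was how many of these intervals lie beside the promoters and other H3K4me3 that both strains share. No unmarked RJ2 interval overlapped a common interval, by the way the lists were made, but 2620 (23.3%, 22.5 to 24.1) lay within 1 kb of one, against 12.1% of all RJ2-specific intervals. In marked intervals this share was 2.28% (2.03 to 2.55), and in the B6 counterpart set 27.0% (25.7 to 28.2). The gap to the common interval was under 200 bp for 840 unmarked RJ2 intervals and between 200 and 500 bp for 1013.

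Under 500 bp from common H3K4me3 the Cst matches were near the level of the flanks. Over all unmarked RJ2 intervals within 1 kb of it, 6.03% (5.15 to 7.01) matched, against 5.02% of their flanks. Unmarked RJ2 intervals under 200 bp from a common interval matched at 5.24% (3.83 to 6.97), those at 500 to 1000 bp at 7.56%, those at 2 to 5 kb at 16.4% and those at 5 to 10 kb at 19.1% (16.6 to 21.7). Marked intervals matched at 36.6% (22.1 to 53.1, 41 intervals) even in the closest group. Leaving out, in turn, the intervals that touched the outer part of a DMC1 interval (348), those within 1 kb of common H3K4me3 (2597), those centred within 1 kb of a transcription start (991) and those in repeated sequence (460) left 6839, or 60.9% of all. Of these, 19.5% (18.6 to 20.5) held a Cst match in the central 200 bp, and 4.90% of their flanks did.

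**Figure D4:**
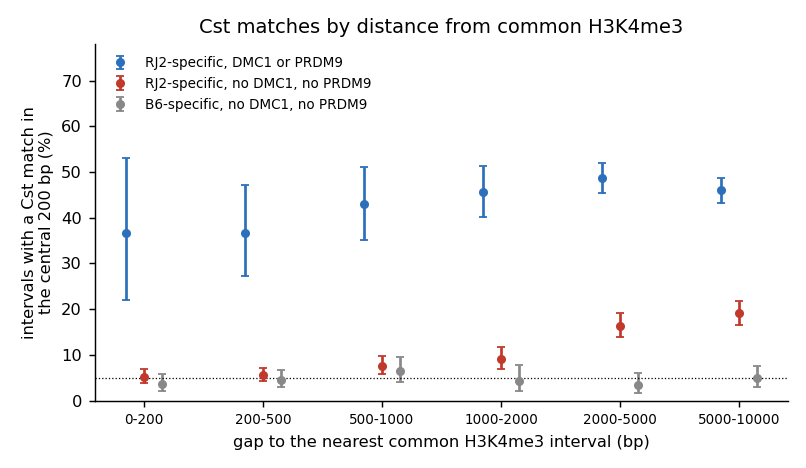
Share of intervals with a Cst match in the central 200 bp (5% threshold, dotted line at 5%) by the gap to the nearest common H3K4me3 interval, with 95% Clopper-Pearson bars. Unmarked RJ2 intervals (red) climb from 5.24% at under 200 bp to 19.1% at 5 to 10 kb, and unmarked B6-specific intervals (grey) stay between 3.32% and 6.48%.

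Transcription starts were a minority. Of the unmarked RJ2 intervals, 1484 (13.2%, 12.6 to 13.8) were centred within 1 kb of an annotated start, against 8.23% of all RJ2-specific intervals, 3.92% of marked ones, 18.2% of the B6 counterpart set and 35.1% of common intervals. Only 482 (4.29%) contained a start, against 3.14% of all RJ2-specific intervals. By annotation 51.1% were centred between genes and 42.2% in introns, near the 49.2% and 45.5% of all RJ2-specific intervals. The starts within 1 kb belonged to protein-coding genes in 82.8% of cases, and the interval lay downstream of the start in 51.3% (48.8 to 53.9). Their centres were CpG-rich, meaning 55% GC or more with a CpG ratio from 0.65 upwards, in 11.4% of cases, beside 17.7% for common intervals at starts. Over all unmarked RJ2 intervals the CpG-rich share was 2.13% (1.87 to 2.41), against 1.03% of all RJ2-specific intervals and 7.18% of common ones, and the median GC was 43.0% in the centres and 42.8% in the flanks. Intervals at starts matched the Cst matrix at 8.49%, with 5.53% in their flanks.

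As a check of the labelled cell type, common H3K4me3 lay over a start of 32 of 39 genes of pachytene and meiotic prophase and 28 of 29 spermatid genes, against 10650 of all 33924 annotated genes (31.4%). It lay over 3 of 21 spermatogonial, 2 of 15 Sertoli cell, 0 of 14 Leydig and peritubular and 0 of 13 blood and endothelial genes. The spermatid share (96.6%) was above that of meiotic prophase (82.1%), so the check cannot tell pachytene cells from later germ cells. Unmarked RJ2 intervals were centred within 1 kb of a start of 1490 of 33924 annotated genes (4.39%). Among genes of meiotic prophase this was 1 of 39, Mael, which acts in transposon silencing, with an interval of 153 bp that lay 8 bp from a common interval. Among spermatid, Sertoli and blood genes it was 0 of 29, 0 of 15 and 0 of 13.

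The share was higher, on few genes, in lists of other kinds. It was 4 of 21 spermatogonial genes (95% interval 5.45% to 41.9%). Sohlh1, a transcription factor of differentiating spermatogonia, had an interval of 520 bp at 413 bp from its start, and Stra8, which is needed for entry into meiosis, had intervals of 464 and 427 bp. Neither had common H3K4me3 over a start. Pou5f1, a factor of pluripotent and germ cells, and Upp1, a uridine phosphorylase, completed the list, with 353 and 320 bp. Unlike the others, Pou5f1 had common H3K4me3 over a start. Its interval lay 531 bp from a common one, held a Cst match and was in the first 40 Mb of chromosome 17. Among Leydig and peritubular genes it was only 1 of 14 (95% interval 0.181% to 33.9%), where 4.39% of all annotated genes had one. That gene, Pdgfra, a growth factor receptor, had an interval of 796 bp. The part in these values of spermatogonia or somatic cells in the elutriated fraction was not tested.

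Of 24 genes of chromatin and H3K4 methylation, 6 (95% interval 9.77% to 46.7%) had an unmarked RJ2 interval at a start, where 4.39% of all annotated genes did. None of the 6 had a common interval over a start. Common H3K4me3 lay within 1 kb of 3 of these intervals, at 187 to 558 bp, and at least 19083 bp from the other 3. The 4 widest were at Ehmt1, an H3K9 methyltransferase (891 bp), Kdm1b, an H3K4 demethylase (687 bp), Dnmt3a, a DNA methyltransferase (658 bp), and Mll1, an H3K4 methyltransferase (506 bp). Of the 24 genes, 4 had an interval of the B6 counterpart set within 1 kb of a start, where 2.65% of all annotated genes did, and 0 had a marked one, where 1.45% of all did. In the list of the recombination machinery it was 1 of 20, Ehmt2, which pairs with Ehmt1 and had an interval of 425 bp and common H3K4me3 over a start. Starts of Hox genes, which pattern the embryonic axis, had one in 9 of 41 cases (22.0%), among them Hoxd3, Hoxa9, Hoxc12 and Hoxc6, and histone genes (named Hist, with 1 gene of linker histone H1 among the 13) in 13 of 70 (18.6%). Olfactory receptors had 9 of 1249 (0.721%), with Olfr323, Olfr1219, Olfr285 and Olfr982 the widest, and vomeronasal receptors 1 of 433, Vmn1r219. Genes named Zfp had 17 of 374 (4.55%), near the 4.39% of all annotated genes, with Zfp59, Zfp644, Zfp503 and Zfpm2 the widest. At Hist1h4m and Hist1h2ap all 31-base words sampled from the central 200 bp of the intervals occurred more than once in the genome, while at Hist1h4j and Hist1h3i none did. Some of the 13 histone genes shared an interval. The B6 counterpart set had an interval at starts of 3 of 41 Hox genes (7.32%) and 11 of 70 histone genes (15.7%). For genes named Zfp it was 16 of 374 (4.28%), for olfactory receptors 1 of 1249 and for vomeronasal receptors 0 of 433.

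The 10 widest unmarked RJ2 intervals were of mixed kind, and 1 of them held a Cst match in its centre. The widest, chrY:2044953-2049966 (5014 bp, in an intron of the Y with Gm4064 as its nearest start), and chr9:3023846-3026616 (2771 bp, 186 bp from a start of Gm10717) had only repeated 31-base words in their central 200 bp. Another, chrM:12995-15440 (2446 bp, over mt-Cytb), lay in the mitochondrial genome, which has no nucleosomes. The other 7, at 2263 to 3756 bp, lay on chromosomes 2, 8, 11 and 13. They were chr8:50118697-50122452 (nearest start SNORA17), chr2:22454049-22457679 (Gm13339), chr13:31832779-31835985 (U6), chr11:38779183-38782047 (U6), chr11:44046298-44048931 (Gm12154), chr11:50516407-50518955 (Gm12199) and chr11:22107020-22109282 (Ehbp1). All 7 lay between 35838 and 280954 bp from common H3K4me3. The one on chromosome 13 held the match. Of the widest intervals at a start and without common H3K4me3 within 1 kb, 3 were the chromosome 9 and mitochondrial intervals named above and a second of chromosome 9, chr9:3017348-3019498 (Gm16869), with 82.4% of its central words repeated. The other 2 were chr3:159502589-159504361 at Wls (1773 bp, 774 bp from the start), which codes for a carrier of Wnt proteins, and chr11:42928165-42929879 at Gm12145 (1715 bp). Over all unmarked RJ2 intervals, 7.14% (6.67 to 7.63) had at least 50% of their central words repeated, against 3.89% of all RJ2-specific intervals and 5.40% of common ones. This was 11.9% in the intervals under 400 bp, 3.92% at 700 to 1000 bp and 9.31% in those of at least 1 kb. Its part in the list of intervals was not tested.

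At the edge of the rule, the intervals inside and outside differed by a few bases. Just inside, chr10:43744039-43744302 and chr12:60870021-60870523 met the end of a DMC1 central part with 0 bases between, and chr10:31044878-31045313 with 1 base. Just outside, chr19:7698946-7699215 shared 1 base with it and chr16:52343893-52344471 and chr5:140117058-140117432 shared 3. The 3 intervals nearest to a PRDM9 peak, at 6 bp each, were chr1:55754187-55755040, chr3:123579808-123579989 and chr7:106001177-106001579. Such cases were few: 348 (3.10%, 2.78 to 3.43) touched the outer part of an RJ2 DMC1 interval, and 11.5% (8.34 to 15.3) of these had a Cst match. The median distance was 53.3 kb to the nearest DMC1 centre and 80.8 kb to the nearest PRDM9 peak.

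Overlap with the other lists was found in under 1% of intervals for each list. Of the unmarked RJ2 intervals, 80 (0.712%, 0.565 to 0.885) met a DMC1 interval of B6, 17 (0.151%) a B6 PRDM9 peak, 13 (0.116%) a peak of the Prdm9KO list and 1 a peak of the Spo11KO list. Over all RJ2-specific intervals these shares were 1.11% for B6 DMC1, 0.0786% for B6 PRDM9 and 0.136% for Prdm9KO. Of the 80 over B6 DMC1, 8 had a Cst match (95% interval 4.42% to 18.8%). A B6-specific interval lay within 1 kb of 341 (3.04%), against 1.86% of all RJ2-specific intervals and 0.842% of marked ones. Other unmarked RJ2 intervals lay within 1 kb of 1288 (11.5%, 10.9 to 12.1), a share that was not counted for the other sets.

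Unmarked intervals were 41.0% (37.6 to 44.5) of the RJ2-specific intervals of the X chromosome and 53.0% (49.8 to 56.1) of those of chromosome 17, the lowest and highest shares among chromosomes 1 to 19 and X. On the X there were 324 unmarked RJ2 intervals, or 2.88% of all (2.58 to 3.21), beside 3.27% of all RJ2-specific intervals. Their density was 1.94 per Mb, against 3.85 per Mb on chromosome 1 and 5.75 per Mb on chromosome 11. Only 5.86% (3.57 to 9.01) of the X intervals held a Cst match and 30.9% were centred within 1 kb of a start, beside 15.1% and 13.2% of all unmarked RJ2 intervals. A male has a single X and so less template for it, and the part of this in the count was not tested.

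Chromosome 17 carries the segment by which RJ2 differs from its background strain, and reads of that segment were aligned to the B6 reference. The strain name gives its ends as markers without coordinates, so the first 40 Mb were taken by assumption to stand for it. In the first 40 Mb there were 262 unmarked RJ2 intervals (2.33%, 2.06 to 2.63), beside 1.79% of all RJ2-specific intervals. Their density was 6.55 per Mb, against 4.88 per Mb in the rest of the chromosome and 4.36 on the other autosomes. Marked intervals went the other way there, with 4.25 and 5.46 per Mb, and unmarked B6-specific intervals stood at 3.88 and 1.72 per Mb. Common H3K4me3 was denser there too, at 22.6 and 17.3 per Mb. Of the 262, 13.4% (9.48 to 18.1) held a Cst match. Sequence differences between the segment and the reference cannot be told apart here from strain differences in the mark.

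**Figure D5:**
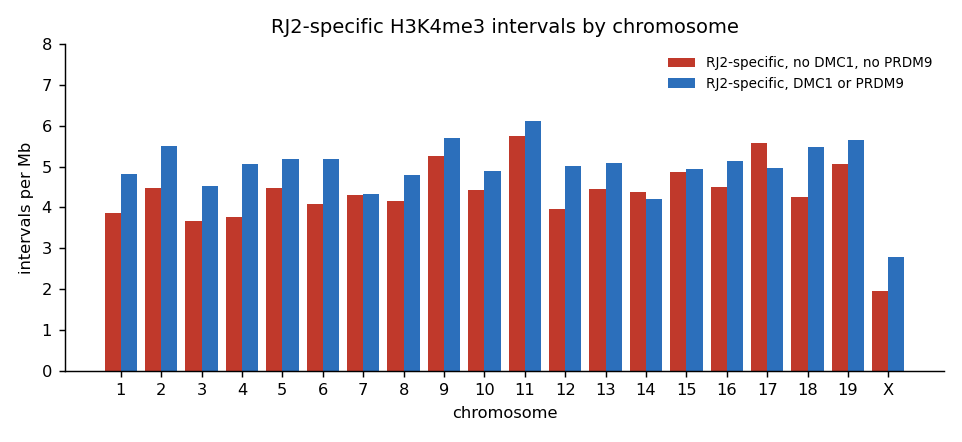
RJ2-specific H3K4me3 intervals per Mb of chromosomes 1 to 19 and X, without DMC1 or PRDM9 (red) and with either (blue). The X is lowest for both, at 1.94 and 2.80 per Mb, and red exceeds blue on chromosomes 14 and 17.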

How the data were processed

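The authors mapped ChIP-seq reads to mm9 with Bowtie, Bowtie2 or, for DMC1, a modified BWA, kept unique reads without duplicates, and called peaks with MACS. For PRDM9 and DMC1 they pooled 2 replicates and set the number of peaks by irreproducible discovery rate. The Prdm9KO list differs, as it came from an unreplicated ChIP and its peaks were called at a relaxed p-value. For H3K4me3 they intersected peaks of 3 sets of reads. The deposited lists hold positions only (9 lists, from 22 of the 32 libraries; H3K36me3 was not analysed here), so depth per value is not known from them.

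Overlaps were counted at 1 bp with Python 3.11.15 and numpy 2.4.6. Sequence came from NCBIM37, whose chromosome names and lengths are those of mm9, and genes from GENCODE vM1. Matrices were grown in 8 rounds from the 8-base word most enriched in the central 100 bp of PRDM9 peaks over windows 5 kb away. On 4838 RJ2 PRDM9 peaks of the chromosomes not used for learning, 50.2% matched. Repeats were scored as the share of 31-base words of the central 200 bp that occur more than once in mm9. Shares have 95% Clopper-Pearson intervals (scipy 1.17.1). Overlaps and matrices were checked on simulated data.

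Regions named are the 10 widest and 10 best matching unmarked RJ2 intervals, those at the edge of the rule and the 5 widest at starts without common H3K4me3; genes named are listed genes with a start within 1 kb of a centre, up to 4 per list. None is on chromosome 18, where 1 interval scored above the lowest of the 10. One of the best matching is not reported here. The members, lists and rules were chosen with earlier results of these data known. With 1 H3K4me3 library per strain nothing was tested.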

Additional observations from a re-analysis of the deposited data

How the results depend on the processing

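The lists limit these results: they give no depth, 1 H3K4me3 library per strain, and pooled replicates. The number of unmarked RJ2 intervals stayed between 10883 and 11772 under the other overlap rules tried, and was 1993 when only intervals of at least the median RJ2-specific width (780 bp) were kept. Among these wide ones, 25.1% held a Cst match, 8.08% were centred within 1 kb of a start and 16.9% had common H3K4me3 within 1 kb. Away from common intervals by over 1 kb, 17.9% held a match, 11.7% were at a start, 2.51% were on the X, and the median width was 548 bp. It was 537 bp without repeated words and the Y and mitochondrial chromosomes, an alternative chosen after seeing the data. The Cst share was 7.06% at the 1% threshold, 19.6% at the 10% threshold, 17.7% in the central 400 bp with its threshold set again, and 29.8% over the whole interval, which gives wide intervals more chance matches. It was 13.6% for 250 bp to either side at the 1% threshold, also chosen after seeing the data. The share at starts was 8.79% within 500 bp, 18.7% within 2 kb and 4.29% for intervals that contain one. The share near common H3K4me3 was 16.5% within 500 bp and 28.2% within 2 kb. The CpG-rich share was 4.18% with GC of at least 50% and a ratio of at least 0.6. The other alternatives moved a result by less than its interval. No paired analysis was possible because no result comes from a test.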

Other observations

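In the 9537 unmarked RJ2 intervals without a Cst match in the central 200 bp, the 8-base word ACCGGAAG ranked first by its excess over the flanks divided by the square root of the count the flanks predict, with 68 centres and 31 flank windows (4.25-fold after adding 1 to the flank count). Rarer words had larger folds, such as GACCGCGC with 9 centres and 0 flank windows. The first word holds the core recognized by ETS transcription factors. It was chosen after its values were seen. On either strand it occurred in the central 200 bp of 72 of 11235 unmarked RJ2 intervals (0.641%, 0.502 to 0.806) and in 0.169% of windows 5 kb away. It occurred in 0.131% of marked RJ2-specific intervals, 0.843% of unmarked B6-specific ones and 1.06% of common ones.

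In windows of 1 Mb the median number of unmarked RJ2 intervals was 4, and 220 of 2649 windows had 0. The fullest, from 21 to 22 Mb of chromosome 13, held 19, of which 8 had a gene named Hist as their nearest start, 5 had repeated central words and 1 held a Cst match. A second window in the histone cluster, from 23 to 24 Mb of the same chromosome, held 17, with 4 nearest to a gene named Hist. The windows chr11:87000001-88000000 and chr7:150000001-151000000 also held 17 each, and chr17:35000001-36000000 and chr7:52000001-53000000 held 16 each. In all of these, 0 were nearest to a gene named Hist. Over 255 windows of 10 Mb, the number of unmarked RJ2 intervals had a Spearman's rho of 0.83 with the number of common intervals, 0.67 with marked RJ2-specific ones and 0.64 with unmarked B6-specific ones. The windows share gene content, base composition and mappability, so these values describe the layout only.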
